A study of Mus musculus with 4 samples.

Results

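The regions described here are 294 places in the genome where binding of the transcription factor Tbx20 was called, close to other such places. They come from an immunoprecipitate of adult mouse heart that had no replicate. They were taken from a list of 4012 binding peaks and are the peaks on chromosomes 1 to 19 that lie in a run, meaning 3 or more peaks in which neighbouring midpoints are at most 50 kb apart. Runs of 8 or more peaks were left out, and after the runs had been formed so were those peaks of the other runs that scored 60 or more. The remaining members made up 7.40% of the 3972 peaks on these chromosomes and belonged to 100 runs. The members were thus chosen by measured values, the positions and scores of the peaks, so closeness and scores below 60 are not findings.

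Tbx20 is a T-box transcription factor, one of a family that binds DNA through a conserved domain, and it is needed both to build the heart and to keep adult heart muscle working. It acts beside other cardiac factors such as Gata4 and Nkx2-5. A single gene can be controlled by several separate stretches of regulatory DNA, so neighbouring peaks may or may not belong to 1 gene. The peak list holds positions, widths and scores and no measure of enhancer activity, so the groups are called runs below, not enhancers. Genes are not named, because the positions are on the mm9 build and no gene annotation of that build was used.

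The series holds 1 chromatin immunoprecipitate of Tbx20 fused to green fluorescent protein (GFP), made with goat anti-GFP from adult CD1 whole heart at an age of 2 months. The controls are 3 whole heart input DNA samples of the same strain, but the labels date them to the embryo: inputs 1 and 2 to E11.5, input 3 to E9.5. The labels do not name the tagged allele or its promoter. Whole heart mixes muscle, endothelium, fibroblasts and other cells, so a peak cannot be placed in a cell type. With 1 immunoprecipitate there is no replicate and no test over samples, so every comparison below is a description of this peak list, and the depth behind it is unknown.

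Small runs made up nearly all of the set. Of the 100 runs, 80 held 3 peaks, 17 held 4, 2 held 5 and 1 held 6, for 324 peaks before the score limit. The next larger runs in the list held 14 and 29 peaks and were left out. The score limit removed 30 peaks from 27 runs, 1 each from 24 runs and 2 each from 3 runs, while 73 runs kept every peak. After this, 68 runs held 3 members, 19 held 2, 9 held 4, 3 held 5 and 1 run kept a single member. Just inside the limits lay gaps of 49805 and 49957 bp and scores of 58.5 and 59.7, and just outside lay gaps of 50017.5 and 50034.5 bp and scores of 60.2 and 61.98.

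The runs were short and mostly empty of peaks. The span of a run, from the start of its first peak to the end of its last, had a median of 44.1 kb. The interquartile range of spans was 26.3 to 56.4 kb and the extremes were 3.14 and 96.7 kb. Runs of 3 had a median span of 41.7 kb and runs of 4 a median of 57.2 kb, whereas the 2 runs of 5 covered 26.3 and 51.4 kb and the run of 6 covered 36.4 kb. Peaks filled a median of 2.31% of the span, from 0.648 to 22.6%. Around each run the nearest peak outside it lay at a median of 186 kb and at least 51.4 kb away, and the single peaks used for comparison lay at a median of 207 kb from their nearest neighbour.

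Within runs, short gaps were more frequent than long ones among the gaps that the joining rule allows. That rule sets the longest gap, so the gap lengths below depend on it and are not findings in themselves. With joining limits of 20 kb and 100 kb the median gap was 8.43 kb and 33.6 kb. The gap lengths were not compared with any reference spacing. The 224 gaps between neighbouring midpoints had a median of 17.1 kb and an interquartile range of 8.31 to 28.2 kb, and the shortest was 0.349 kb. Gaps under 10 kb numbered 75, or 33.5% (exact Clopper-Pearson 95% interval 27.3 to 40.1%, which covers counting error only and treats gaps as independent), and 10 gaps were under 1 kb. Spacing inside a run was uneven. In runs of 3, the longer gap was a median of 2.28 times the shorter, and it was over 2 times the shorter in 51 of 80 runs. The ratio ran from 1.00 to 143.

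**Figure D1:**
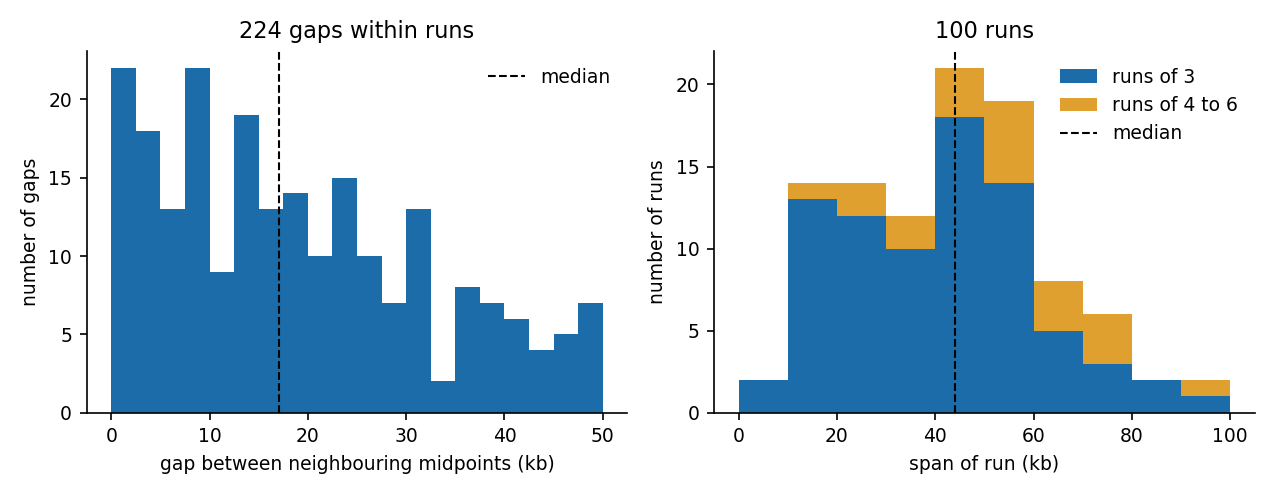
Left, the number of gaps (y axis) by the distance in kb between neighbouring peak midpoints of a run (x axis); right, the number of runs by span in kb, with runs of 3 and runs of 4 to 6 stacked. Dashed lines mark the medians, 17.1 kb for gaps and 44.1 kb for spans, and most gaps lie in the left part of the allowed range.

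The 3 runs with the most peaks differed from one another in how their peaks scored. The score is the authors' own value per peak: the note deposited with the list calls it a normalized number of reads, without saying what it was normalized by. It is used here only to describe and rank peaks within this list. The run of 6, on chromosome 14 from 35362547 to 35398922 (mm9, as are all positions), held a peak of score 142.7 from 35387353 to 35387727, which the score limit left out. Its other 5 peaks scored 22.6, 14.8, 24.7, 22.2 and 30.8 in order along the chromosome. The high peak thus stood alone among modest ones, although the peak of 24.7 lay 745.5 bp before it and that of 14.8 a further 426.5 bp away, midpoint to midpoint.

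The run of 5 on chromosome 16 from 33581097 to 33607429 held scores of 42.6, 4.60, 30.2, 49.2 and 22.8. Its peaks stood as 2 close pairs and a lone peak, with midpoints 791.5 bp apart in the first pair and 587.5 bp apart in the second. In the first pair the scores were 42.6 and 4.60, so closeness did not go with a similar score there. The run of 5 on chromosome 1 from 173458086 to 173509477 scored 23.0, 3.62, 4.03, 7.34 and 4.38. All but its first peak were low, and the peak of 7.34 was 792 bp wide against 154 to 353 bp for the other 4.

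Compact and long runs came with both high and low scores. The shortest run, on chromosome 17 from 35971895 to 35975036, packed peaks of 26.6, 11.6 and 44.0 into 3.14 kb. On chromosome 8 from 46735401 to 46744181, a peak of 77.2, left out by its score, had a peak of 4.26 at a distance of 493.5 bp and one of 5.32 at 8061 bp. The third shortest, on chromosome 4 from 137860532 to 137872144, held the even scores 34.0, 37.7 and 31.5 in 11.6 kb.

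The longest by span was on chromosome 5 from 139764186 to 139860846, with scores of 30.6, 5.01 and 4.07 over 96.7 kb. On chromosome 12 from 86734530 to 86827063, 4 peaks over 92.5 kb scored 31.8, 68.1, 76.6 and 8.92. On chromosome 19 from 42696963 to 42781581, peaks of 30.1, 44.0 and 13.1 covered 84.6 kb. Across the 100 runs, span bore little relation to the median score of a run (Pearson's r = 0.04, Spearman's rho = -0.04) or to its median width (r = 0.01, rho = 0.09). These values describe runs of 1 library, which share its depth and peak calling.

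**Figure D2:**
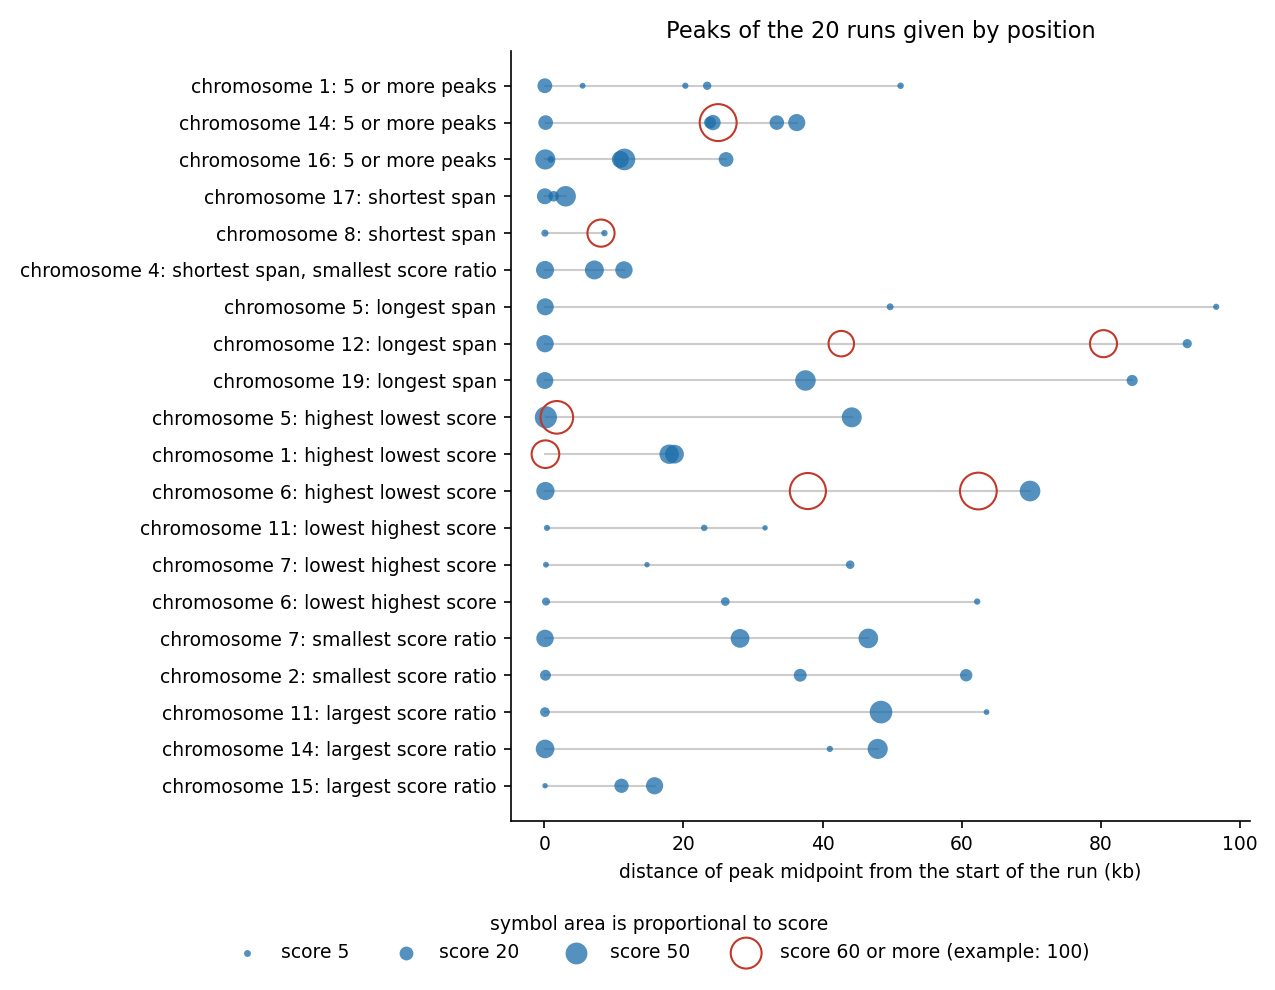
Each line is 1 of the 20 runs given by position and each symbol a peak, placed by the distance in kb of its midpoint from the start of the run, with symbol area proportional to score. Filled symbols are members and open red symbols are peaks of score 60 or more; the label gives the part of the naming rule that chose the run, and large and small symbols stand side by side in most runs.

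Some runs scored high throughout. In the run on chromosome 5 from 122542742 to 122587011 the members scored 51.4 and 41.7 beside a peak of 111 that the limit left out. On chromosome 1 from 122636185 to 122655068 the members scored 39.5 and 37.0 beside a peak of 79.8. On chromosome 6 from 120062485 to 120132389 they scored 35.1 and 44.6, and the peaks of 136 and 141 between them were left out. These 3 runs were chosen because their lowest score was the highest among runs of 3 or 4, and each held at least 1 peak of 60 or more.

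Others scored low throughout, and several of their peaks were broad. The run on chromosome 11 from 3026933 to 3058795 scored 3.996, 4.40 and 3.08, with widths of 765, 923 and 248 bp. The run on chromosome 7 from 38968322 to 39012393 scored 3.61, 3.10 and 7.68, with widths of 479, 515 and 214 bp. The run on chromosome 6 from 72165498 to 72228057 scored 6.83, 7.87 and 4.23, with widths of 494, 174 and 670 bp. Low scores did not always mean a late place in the authors' list of 4012 peaks. The peaks on chromosome 11 stood at places 670, 1179 and 502, those on chromosome 6 at 1867, 1827 and 1801. Those on chromosome 7 stood at 3797, 1656 and 1957. In 4 runs no score reached 10, and their 12 peaks had a median width of 419.5 bp against 242.5 bp for the other 282 members. The run of these not described above, on chromosome 1, had peaks of 360, 208 and 161 bp. Low scores thus did not always go with broad peaks. The threshold of 10 was chosen after the values were seen.

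Peaks in runs were wider than single peaks, while their scores were similar. Single peaks are here the 2526 peaks on chromosomes 1 to 19 with no other midpoint within 50 kb and a score below 60, out of 2709 with any score. Member width ran from 129 to 923 bp with a median of 243 bp (order-statistic 95% interval 231 to 263 bp), against 128 to 1011 bp and a median of 209 bp (203 to 213 bp) for single peaks. Both intervals treat the peaks of 1 sample as independent, and the difference could not be tested over samples. The 829 peaks in runs of 2 with a score below 60 had a median of 236 bp, inside the interval of members. A greater width than that of single peaks was thus not particular to runs of 3 or more. Widths of 400 bp or more were found in 42 of 294 members, or 14.3% (10.5 to 18.8%), in 11.46% of paired peaks (9.37 to 13.8%) and in 7.52% of single peaks (6.52 to 8.62%). By size of run, members had median widths of 237 bp in runs of 3 and 256 bp in runs of 4. The medians were 271.5 bp in runs of 5, over 10 members only, and 317 bp in the run of 6, over 5 members only.

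The median score was 19.6 for members (order-statistic 95% interval 16.2 to 22.9), 20.5 for paired peaks and 20.4 for single peaks (19.2 to 22.0). Interquartile ranges were 11.1 to 34.0 for members and 11.1 to 32.8 for single peaks. Shares in both tails were somewhat higher among members, but this was not tested. Several low-scoring members shared a run: all peaks of the run on chromosome 11 from 3026933 scored under 5. The intervals below treat peaks as independent, and those for scores under 5 overlap. Scores of 40 or more, up to the limit of 60, were held by 15.3% of members and 10.1% of single peaks, and scores under 5 by 7.14% of members (4.48 to 10.7%) and 3.80% of single peaks (3.09 to 4.62%). Before the limit, 30 of 324 peaks in runs had scored 60 or more, which is 9.26% (6.33 to 13.0%), against 183 of 2709 single peaks, or 6.76% (5.84 to 7.77%), and these intervals overlap.

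**Figure D3:**
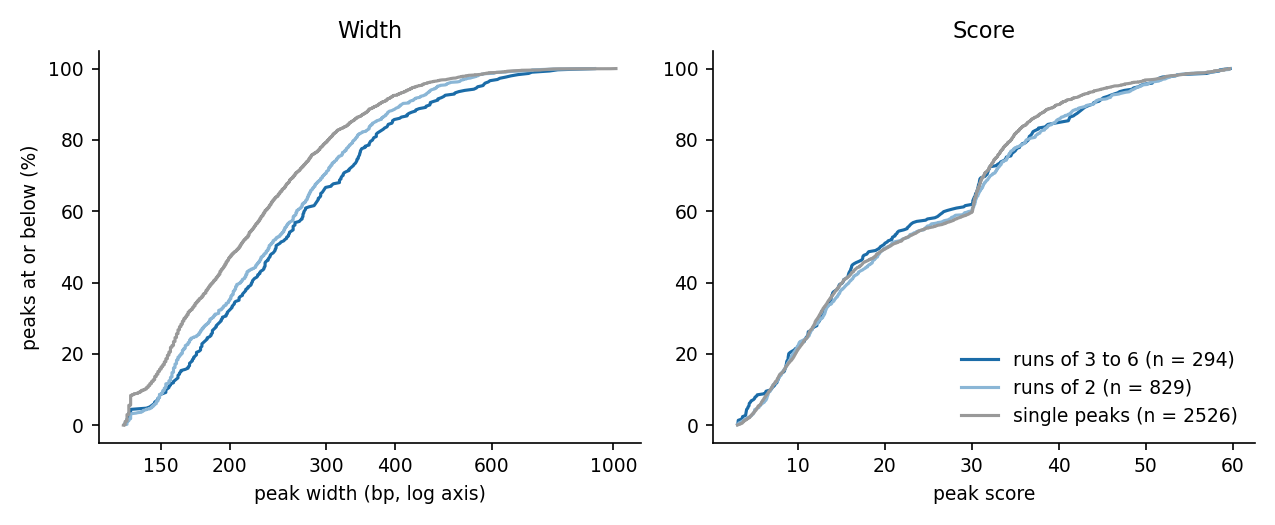
The percent of peaks at or below each width in bp (left, log axis) and each score (right), for members (runs of 3 to 6), peaks in runs of 2 and single peaks, all with scores below 60. The width curve of members lies to the right of that of single peaks (medians 243 and 209 bp), while the score curves lie close together and all bend near 30.

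Place in the authors' list differed too, and width moved with it. The median place was 1807 of 4012 for members and 2282.5 for single peaks, and 54.8% of members (48.9 to 60.5%) stood among the first 2006 peaks against 42.8% of single peaks (40.9 to 44.8%). Earlier peaks were wider in both sets, with Spearman's rho between place and width of -0.34 over 294 members and -0.39 over 2526 single peaks. The list was therefore divided into 4 equal parts of 1003 peaks. Members were the wider set in each part, with medians of 302 against 276 bp in the first, 242 against 215 bp in the second, 227 against 197 bp in the third and 197 against 171 bp in the fourth. Their interquartile ranges overlapped in all 4 parts. Score and width were weakly related, with rho of 0.06 in members and 0.10 in single peaks. At like scores the same order was seen, with median widths of 245 bp in members and 198 bp in single peaks below 10, and 240.5 against 201 bp from 20 to 40. From 40 to 60 the medians were closer, at 263 and 254.5 bp.

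**Figure D4:**
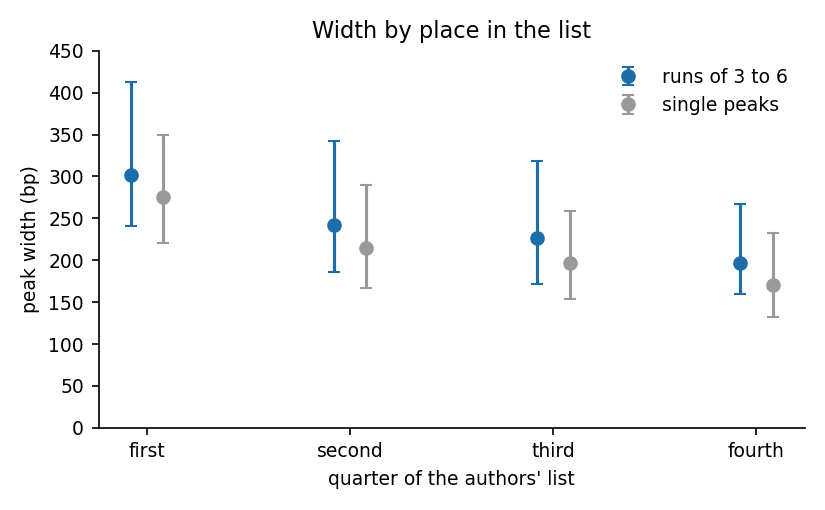
Median peak width in bp (points) with the interquartile range (bars) of members and single peaks in 4 equal parts of the authors' list, from its first to its last peaks. Members have the higher median in each part, from 302 against 276 bp to 197 against 171 bp, and the ranges overlap.

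Scores varied widely within a run, about as much as over single peaks. On the log2 scale, the SD of member scores about the mean of their own run was 0.95 (293 members in the 99 runs with 2 or more), a typical factor of 1.93 (chi-square 95% interval of the SD 0.86 to 1.05, which treats peaks as independent). The SD over all 294 members, which also holds the spread between runs, was 1.06. Over single peaks it was 1.00, a typical factor of 2.00, and within runs of 2 it was 1.00. The last 2 values lie inside the interval. Scores were also limited by the rule, and without the limit the SD within runs was 1.09, against 1.12 over single peaks. These differences were not tested. Of the 73 runs that kept every peak, 14 had a highest score under 2 times the lowest, or 19.2% (10.9 to 30.1%), and 25 had one 4 or more times the lowest, or 34.2% (23.5 to 46.3%). In the 62 of these runs with 3 peaks, the highest of the 3 scores had a median of 36.7, the next 20.6 and the lowest 10.5.

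Among complete runs of 3 or 4 peaks, the extremes show the range. The most even were the one on chromosome 4 named above, one on chromosome 7 from 118836390 to 118883079 with scores of 31.9, 36.9 and 40.3, and one on chromosome 2 from 129371524 to 129432291 with 12.5, 17.4 and 16.1. The run on chromosome 7 was even in width as well, at 212, 231 and 232 bp. The least even was on chromosome 11 from 102017590 to 102081382, where a peak of 53.7 stood between peaks of 9.95 and 3.53. On chromosome 14 from 48715792 to 48763844 a peak of 4.09 lay between peaks of 36.5 and 42.3. On chromosome 15 from 96104873 to 96120840 the scores were 3.10, 21.4 and 31.1, although the widths were nearly equal, at 220, 238 and 228 bp.

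**Figure D5:**
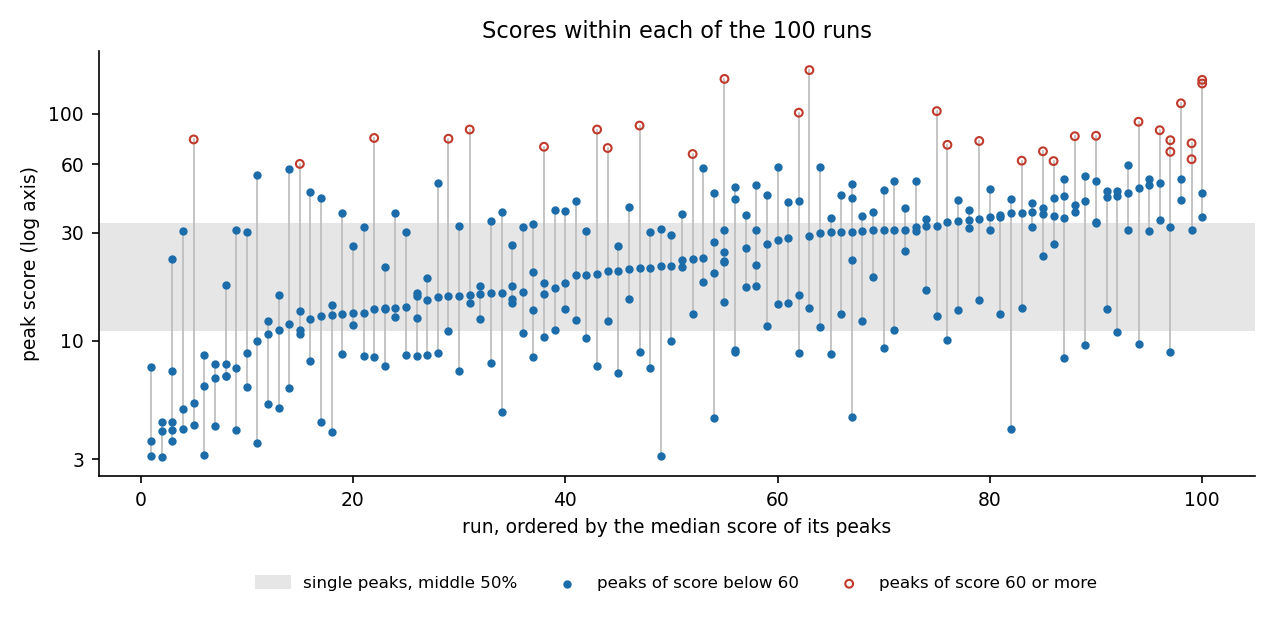
Scores (y axis, log scale) of all peaks in each of the 100 runs, with runs ordered along the x axis by their median score and a line joining the lowest and highest peak of a run. Filled points are members, open red points are peaks of 60 or more, and the grey band is the middle 50% of single peaks (11.1 to 32.8); many runs cross the whole band.

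Among members, close and distant neighbours within a run differed in score by similar factors. Neighbouring members differed in score by a median factor of 1.94 over 179 pairs. The factor was 2.05 for the 32 pairs less than 5 kb apart, 2.03 for the 69 pairs from 5 to 20 kb and 1.87 for the 78 pairs beyond 20 kb. Single peaks that follow each other on a chromosome, a median of 509 kb apart, differed by a factor of 1.98 over 2507 pairs. Scores lay within 2-fold of each other in 50.8% of neighbouring members and 50.9% of successive single peaks.

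Widths also varied within runs. The SD of log2 width about the mean of the run was 0.57 (0.52 to 0.64), against 0.61 over all members, 0.55 over single peaks and 0.54 within runs of 2. The widest member was a median of 1.84 times the narrowest, and in 37 of the 73 complete runs the widest peak was under 2 times the narrowest. Neighbouring members differed in width by a median factor of 1.47 and successive single peaks by 1.42. In the 62 complete runs of 3, the highest-scoring peak was also the widest in 23.

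Members beside a peak of 60 or more and other members had similar scores. The 62 members that shared a run with a peak of 60 or more had a median score of 21.5 (interquartile range 13.2 to 34.4) and a median width of 265 bp. The 232 members of runs without such a peak had a median score of 19.04 (10.6 to 33.9) and a median width of 241.5 bp. The interquartile ranges of the scores overlap, and the difference was not tested.

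The ceiling of a peak was defined as the highest score at its place or later in the list, so by construction no score exceeds it. Scores within 2% of the ceiling were held by 89 members, or 30.3% (25.1 to 35.9%), by 31.8% of paired peaks and by 34.2% of single peaks (32.3 to 36.1%). By run, 23 runs had no peak at the ceiling, 4 had all of theirs there and the other 73 had some. With similar shares in the 3 sets, such a mix is not shown to be particular to runs. The counts were not compared with other groupings of peaks. All 3 peaks of the even run on chromosome 7 from 118836390 lay at the ceiling. The 3 of the low-scoring run on chromosome 11 from 3026933 reached 6.63, 9.58 and 4.39% of it. The lowest ceiling of any member was 29.9979, so low scores lie far below it by construction. Both runs were picked by their scores, so this contrast restates those scores and is not a separate trait.

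Runs were spread over all 19 autosomes. Members made up the largest share of a chromosome's peaks on chromosome 14, with 28 of 176 or 15.9% (exact 95% interval 10.8 to 22.2%), and on chromosome 19, with 18 of 118 or 15.3% (9.30 to 23.0%). Chromosome 7 also held 28 members, in 10 runs, out of 237 peaks. The share was lowest on chromosome 13, where 1 run gave 3 of 171 peaks or 1.75% (0.363 to 5.04%), and on chromosome 2, with 10 of 323 or 3.10% (1.49 to 5.62%). These chromosomes were picked as the extremes, and peaks of a run are not independent, so the intervals are too narrow.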

How the data were processed

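ChIP-seq, sequencing of DNA pulled down with a protein, was done on 1 Tbx20-GFP sample, for single-end Illumina sequencing per the labels' protocols. The authors deposited peaks called with QuEST and a score per peak, a normalized read number per the note deposited with the list. The submitters' processing notes name mm9, and positions are printed as deposited. The aligner is not given in the sources used here, nor are thresholds or versions. No values of the 3 inputs were used, and no genome sequence, so no peak sequence is printed. Runs, gaps, medians and log2 SDs were computed in Python 3.11.15 (scipy 1.17.1, pandas 2.3.3, numpy 2.4.6) and drawn with matplotlib 3.10.9. Only the forming of runs, the choice of members, the merging of close peaks and the within-run SD were tested on simulated data. Intervals are 95%: exact Clopper-Pearson for shares, binomial order statistics for medians and chi-square for SDs.

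Members and groups were chosen with earlier results of these data known. Runs were given by position under a rule: all of 5 or more peaks, and, of runs of 3 or 4, 3 each of the shortest and longest span, the highest lowest score, the lowest highest score, and the smallest and largest score ratio among complete runs. Runs on chromosome 18 were counted but not given by position. Gap classes, score classes, parts of the list and the ceiling were chosen after seeing the data. Alternatives were other gaps, merged peaks, the 2006 better-scoring peaks, no score limit and no limit on run size. No test was run, since 1 sample allows none.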

Additional observations from a re-analysis of the deposited data

How the results depend on the processing

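There was no replicate to leave out. No paired analysis was possible because the groups share no tested value: the inputs have none used here. The joining gap sets the counts and sizes by construction. A gap of at most 20 kb gave 110 peaks in 37 runs with a median gap of 8.43 kb and span of 18.9 kb, and 100 kb gave 715 peaks in 227 runs with 33.6 and 95.8 kb. Forming runs from the 2006 better-scoring peaks left 53 peaks in 20 runs, whose median score was 36.3 and median width 287 bp, with a within-run SD of log2 score of 0.34 (0.30 over single peaks). Without the score limit the within-run SD of log2 score was 1.09 (1.12 over single peaks). With runs of 8 or more peaks kept, the within-run SD of log2 width was 0.65 (0.55 over single peaks). The other 41 of 56 values were within 1.5 times the reported count or inside the reported interval, among them the 8 values after merging peaks within 500 bp and the 8 after leaving out the 4 runs under a score of 10, the latter chosen after seeing the data. Members had the higher median width in all 7 alternatives, at 234 to 287 bp against 206 to 216.5 bp. The read depth, which limits which weak peaks could be called, is unknown.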

Other observations

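In the 80 runs of 3 peaks, peaks of 60 or more included, the highest score stood at the middle peak in 32, at the peak with the highest coordinate in 29 and at the peak with the lowest coordinate in 19. In the 62 of these runs that lost no peak to the score limit, the counts were 23, 27 and 12, so the leading position depends on the limit, which removes runs by the height of their top peak. The direction of coordinates was not compared with the strand of genes, and no test was run.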
